A study of Mus musculus with 34 samples.

Results

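Regions that carried H3K4me1 in the embryonic mouse limb but lay outside the lists of forebrain H3K4me1, limb H3K27ac and H3K4me3 numbered 28047 of the 58181 limb H3K4me1 regions (48.2%), and of 354733 regions over all 30 deposited lists. They were chosen by these lists: a limb H3K4me1 region was kept when it shared not even 1 bp with forebrain H3K4me1, limb H3K27ac, limb H3K4me3 or forebrain H3K4me3. They are called limb-only primed regions below, where limb-only means absent from the forebrain list and primed means absent from the limb H3K27ac list. Width, H3K4me1 rank and distance from the excluding lists come from the values that chose them and are given as a description. H3K27me3 and the FLAG and control lists were not used in the choice.

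H3K4me1 is a methyl mark that covers enhancers and the flanks of promoters, and it can be present before an enhancer is active. H3K27ac marks active enhancers and promoters, and H3K4me3 marks promoters. H3K27me3 is laid down by Polycomb repressive complex 2 and covers silent developmental genes, and the same lysine cannot carry both it and H3K27ac. SMARCA4 and SMARCC2 are subunits of BAF chromatin remodelling complexes, EP300 is the acetyltransferase that writes H3K27ac, and NCOA1 and NCOA2 are nuclear receptor coactivators.

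The series holds ChIP-seq of mouse tissues at embryonic day 11.5 and of embryonic stem cells (ESC). The histone libraries and their inputs came from limb or forebrain of strain CD1, with male and female embryos pooled (about 150 a library). The 14 FLAG libraries with a list here used an anti-FLAG antibody on strain 129/C57BL/6: SMARCA4 in limb, forebrain, face, heart, neural tube, hindbrain, midbrain and ESC, SMARCC2 in face and hindbrain, EP300 in face and ESC, and NCOA1 and NCOA2 in hindbrain. About 150 or 300 embryos were pooled for each tissue, and every FLAG and control sample carries the same genotype label, a SMARCA4/FLAG knock-in, whichever protein its title names. The library titled SMARCA4 hindbrain has another tissue in its tissue label and is used here by its title. Of the controls, called input controls in the labels, 6 have a list: EP300 face, NCOA1 hindbrain, NCOA2 hindbrain, SMARCA4 midbrain, SMARCC2 face and SMARCC2 hindbrain. The H3K27ac library had an input of its own, apart from the input that the limb methylation marks share. Each condition is 1 library, so no p-value is given, and the intervals below cover counting error over regions alone.

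Limb-only primed regions were narrow and sat low in the limb H3K4me1 ranking. Their median width was 1097 bp (quartiles 843 and 1586 bp, range 333 to 13218 bp), and together they covered 38.2 Mb. Regions that were limb-only but overlapped H3K27ac (1943, called acetylated limb-only) had a median width of 2062 bp. Regions shared with forebrain H3K4me1 and without limb H3K27ac (9006, called shared primed) had a median of 1540 bp. A further class, called forebrain-only, was 7835 forebrain H3K4me1 regions clear of limb H3K4me1, limb H3K27ac and H3K4me3, with a median of 1224 bp. The series has no forebrain H3K27ac library, so forebrain-only regions were not cleared of forebrain acetylation. They are thus not a mirror of the limb-only primed regions in the comparisons below. With the limb H3K4me1 list split by rank into 10 bins of equal size, 5.64% of the best-ranked bin met the rule and 77.3% of the lowest-ranked bin did. The list lengths differ: the limb H3K4me1 list holds 58181 regions, the forebrain H3K4me1 list 34848, the limb H3K27ac list 17188. A region weakly marked in forebrain, or weakly acetylated, that missed its list would therefore count here as limb-only or primed.

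**Figure D1:**
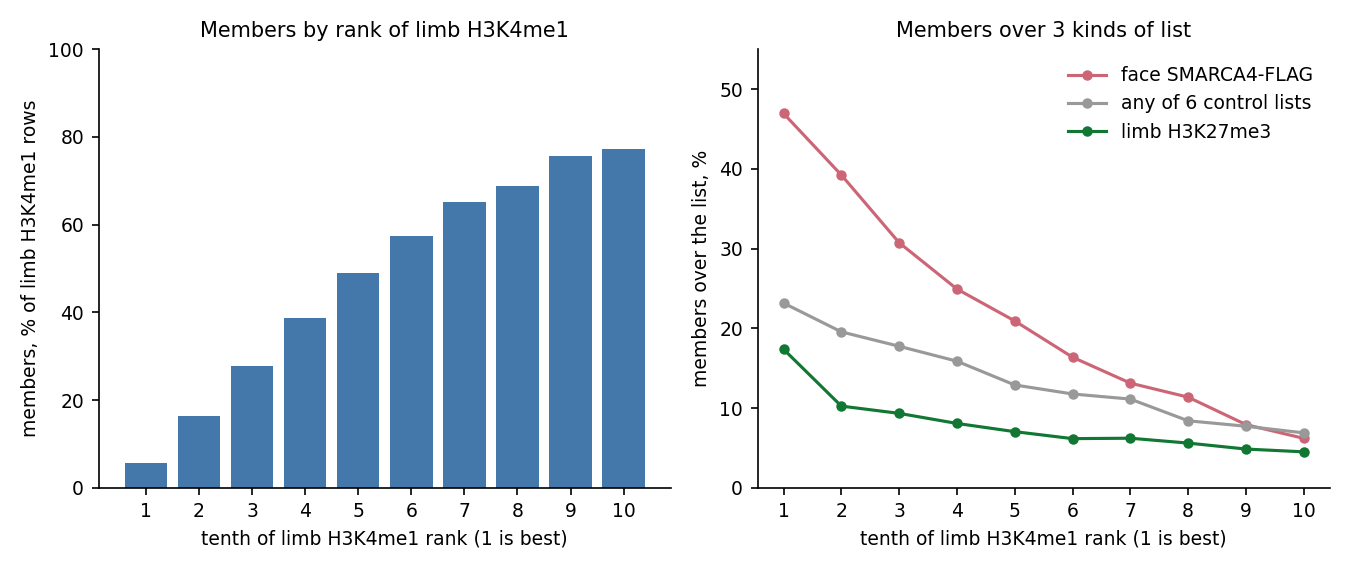
Left, bars give the share of limb H3K4me1 regions that met the rule in each of 10 bins of the authors' rank (bin 1 is best), rising from 5.64% to 77.3%. Right, points give the share of the limb-only primed regions (members) of each bin that overlapped face SMARCA4, any of 6 control lists or limb H3K27me3; all 3 were highest in the best-ranked bin (47.0%, 23.2% and 17.4%) and lowest in the last (6.20%, 6.89% and 4.51%). The median width of these regions was 2784 bp in the best-ranked bin and 775 bp in the last, and the part of width in the shares was not tested.

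The distance to the excluding regions differed between lists. The median gap to the nearest forebrain H3K4me1 region was 13552 bp, to the nearest limb H3K27ac region 33642 bp and to the nearest limb H3K4me3 region 31567 bp. At the edge of the rule, 127 limb-only primed regions had an excluding region within 100 bp, and 89 limb H3K4me1 regions were left out by an overlap of 1 to 100 bp in all. From the centre of one limb-only primed region to the centre of the nearest other, the median distance was 12122 bp, and 43.6% had another within 10 kb.

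A minority of the limb-only primed regions lay under H3K27me3 of the limb. Limb H3K27me3 overlapped 1773 of them (6.32%, exact Clopper-Pearson 95% interval 6.04 to 6.61%), beside 16.6% of all limb H3K4me1 regions. Where it did, it mostly covered the region: the median covered share was 97.1% of the bases, and 837 regions (47.2% of the 1773) lay wholly under the mark. Sliding the whole H3K27me3 list around each chromosome gave a mean overlap of 2.51% over 100 circular shifts, so that the measured share was 2.52 times the shifted one. Shifts of 100 kb to 1 Mb, which keep a list in its neighbourhood, gave 4.14% and a ratio of 1.53.

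Forebrain H3K27me3 covered fewer of them, 550 regions (1.96%, 1.80 to 2.13%), beside 9.6% of all limb H3K4me1 regions. Its ratio to the circular shifts was 1.61, and to the shifts of 100 kb to 1 Mb it was 1.03. With only the 4736 of its 11073 regions that were clear of the 4 excluding lists, the ratios were 3.91 and 2.62, and for limb H3K27me3 treated in the same way they were 7.93 and 4.23. By tissue, 1477 regions (5.27%) were under H3K27me3 in limb alone, 254 (0.906%) in forebrain alone and 296 (1.06%) in both, while 26020 (92.8%) were under neither list. The H3K27me3 lists differ in length (13137 regions covering 45.8 Mb in limb, 11073 covering 19.1 Mb in forebrain), and the part of that in the difference between tissues was not tested.

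The H3K27me3 share of the limb-only primed regions lay between those of the neighbouring classes. Acetylated limb-only regions were under limb H3K27me3 in 1.60%, which is 4.73 percentage points below the primed ones (Newcombe 95% interval 4.01 to 5.28), and the primed ones were higher on all 20 chromosomes. They were also higher in each of 4 width bins and in each of the 10 rank bins, with an interval clear of 0 in 8 of these 10. Shared primed regions were under it in 13.8%. The limb-only share was lower by 7.49 points (interval of limb-only minus shared from -8.27 to -6.74), on all 20 chromosomes, in all 4 width bins and all 10 rank bins. Only 39.5% of limb H3K27me3 regions were clear of the 4 excluding lists. The acetylated and shared classes each touch 1 of these lists by definition, and the part of this in the differences was not tested. Forebrain-only regions were under limb H3K27me3 in 6.89%, and there the difference was -0.57 points with an interval from -1.22 to 0.04, split 10 chromosomes to 10. Under forebrain H3K27me3, in contrast, the forebrain-only regions had 4.21% against 1.96% for the limb-only ones, a difference of -2.25 points (-2.74 to -1.80).

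**Figure D2:**
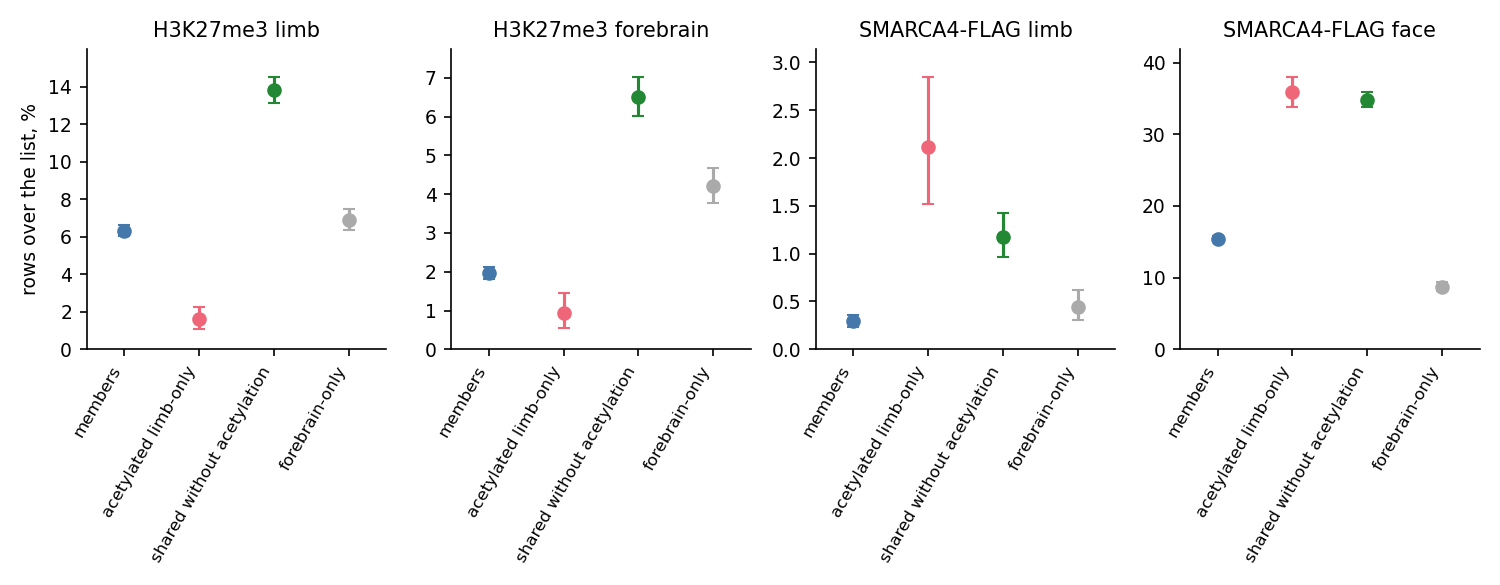
Each panel gives the share of regions of 4 H3K4me1 classes that overlapped 1 list (limb H3K27me3, forebrain H3K27me3, limb SMARCA4, face SMARCA4); members are the limb-only primed regions, the class "shared without acetylation" is called shared primed in the text, points are shares and bars exact 95% intervals, and each vertical axis has its own scale from 0. Members had 6.32% under limb H3K27me3, between acetylated limb-only (1.60%) and shared (13.8%) regions, and 15.4% over face SMARCA4, below both (35.9% and 34.8%).

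The X chromosome stood apart. Of 248 limb-only primed regions on it, 105 (42.3%, 36.1 to 48.8%) were under limb H3K27me3, against 1668 of 27791 (6.00%, 5.73 to 6.29%) on the autosomes, where single chromosomes ranged from 2.91% to 9.43%. Circular shifts along the X chromosome gave a mean of 2.21%. Forebrain H3K27me3 was also more frequent there, at 13.3% (9.34 to 18.2%) against 1.86%. On the X chromosome 60.9% of 64 shared primed regions (47.9 to 72.9%) were under limb H3K27me3. Of 27 acetylated limb-only regions 33.3% were (16.5 to 54.0%), an interval that includes the limb-only primed share. The forebrain-only share there was 39.3% of 61 (27.1 to 52.7%), which also includes it. Limb H3K4me1 regions were sparse on this chromosome, 3.96 per Mb against 23.3 per Mb on the autosomes, while limb H3K27me3 regions were denser, 8.15 against 4.77 per Mb, and narrower, with medians of 1070 and 2229 bp. The pooled embryos were of both sexes, so that male and female cells cannot be told apart in these values. Without the X chromosome the share under limb H3K27me3 was 6.00%.

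**Figure D3:**
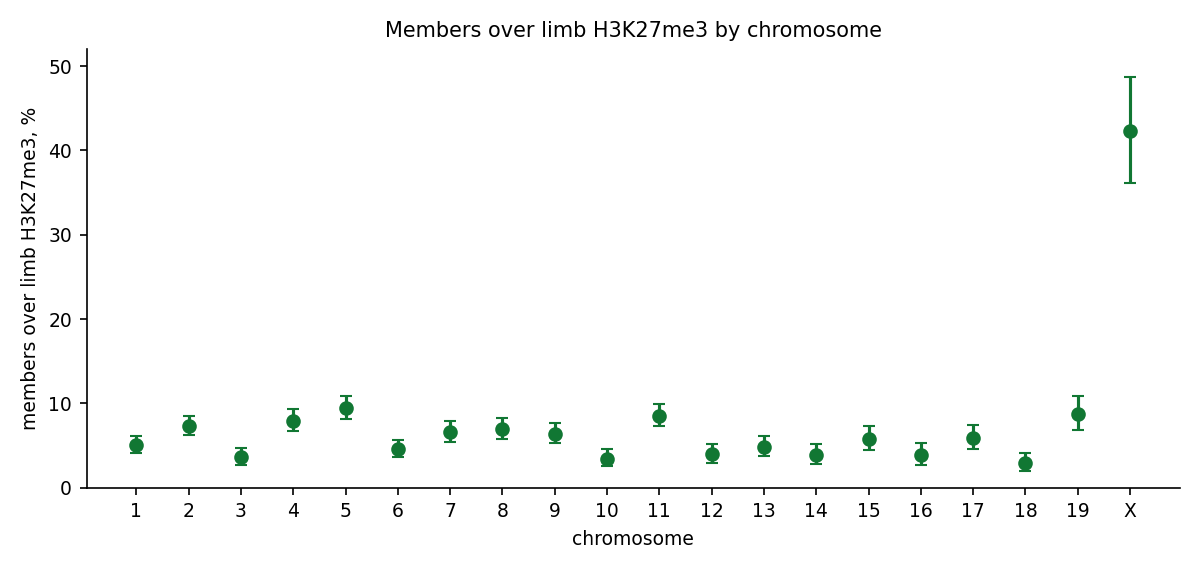
Points give the share of limb-only primed regions (members) under limb H3K27me3 on each chromosome, with exact 95% intervals. The autosomes lie between 2.91% and 9.43%, and the X chromosome is at 42.3%.

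Among primed regions, those under H3K27me3 were wider and closer to genes. Regions under limb H3K27me3 alone had a median width of 1341 bp and those under neither list 1083 bp. Within 10 kb of a gene start point 11.9% of 4192 regions were under limb H3K27me3, from 10 to 100 kb 5.57% of 17079, and beyond 100 kb 4.76% of 6768. Face SMARCA4 overlapped 23.0% of the regions under limb H3K27me3 alone and 14.8% of those under neither, and the control lists also overlapped more of the first (18.5% against 10.4%), whose part in this was not tested. The region with the most bases under the mark, chr1:92011306-92017475 (mm9), was covered over all of its 6170 bp, with Iqca as its nearest start point at 27671 bp. Next came chr11:96162884-96168697, covered over its 5814 bp, which lay 5306 bp from the start of Hoxb6, a homeobox gene of axial patterning, and was under forebrain H3K27me3 as well. The third, chr4:114236100-114241689 (5590 bp covered), was 159566 bp from the nearest start point, that of the transcript model OTTMUSG00000008561.

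FLAG peaks overlapped 7071 limb-only primed regions in at least 1 of 14 lists (25.2%, 24.7 to 25.7%), beside 51.9% of all limb H3K4me1 regions. Circular shifts gave 6.28%. The control lists, measured in the same way, overlapped 3078 (10.97%, 10.6 to 11.4%), beside 30.2% of all limb H3K4me1 regions, and their shifts gave 2.998%. The ratios to the shifts were 4.02 for the FLAG lists and 3.66 for the control lists. When FLAG peaks that touched a control or input peak were left out, 60096 of 121949 peaks remained. A remaining peak overlapped 5984 regions (21.3%).

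Most of this overlap came from face and heart. SMARCA4 of the face, the longest FLAG list with 35099 peaks, overlapped 4314 limb-only primed regions (15.4%, 15.0 to 15.8%), beside 40.7% of all limb H3K4me1 regions, 5.26 times its shifts. SMARCA4 of the heart overlapped 1445 (5.15%), beside 12.4%, 4.94 times its shifts. Among the regions that met the rule within the 34848 best-ranked limb H3K4me1 regions the face SMARCA4 share was 24.1%, and with the best-ranked 50% of face SMARCA4 peaks it was 3.16% of all 28047. SMARCC2 of the face overlapped 993 (3.54%), beside 16.1%, 2.34 times its shifts, and 425 of these 993 (42.8%) were also over face SMARCA4. Of the 5632 regions found in exactly 1 FLAG list, 3155 (56.0%) were in face SMARCA4 and 869 (15.4%) in heart SMARCA4. No control list of face or heart SMARCA4 was used here. Each library was made from whole tissue, so the cells that carry a peak and the cells that carry H3K4me1 were not separated.

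Peaks of SMARCA4 from the limb itself were rare in these regions. Limb SMARCA4 overlapped 82 of 28047 (0.292%, 0.233 to 0.363%), beside 7.87% of all limb H3K4me1 regions. The circular shifts gave 0.826%, so the measured share was 0.354 of the shifted one. That order depends on which peaks are shifted. Only 275 of the 5251 limb SMARCA4 peaks (5.24%) were clear of the 4 excluding lists, and the other peaks could hardly meet a region that the rule had cleared of those lists. With those 275 peaks alone, 66 regions (0.235%) were overlapped against 0.0366% after shifting, a ratio of 6.43 (4.98 to 8.18 from the counting interval). The 82 regions were wider than the rest (median 1639 bp against 1096 bp) and closer to a start point (35.4% within 10 kb against 14.9%). Limb H3K27me3 lay over 16 of them (19.5%, 11.6 to 29.7%), against 6.28% of the rest. They also ranked better (median 25978 against 39192), and more of them were over a control list (18.3% against 10.95%). The part of width, rank and control overlap in the H3K27me3 share was not tested. Of the 82, 48 (58.5%) were also over neural tube SMARCA4 and 27 (32.9%) over face SMARCA4.

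The limb SMARCA4 share was lower in limb-only primed regions than in acetylated limb-only regions (2.11%, a difference of -1.82 points, -2.56 to -1.26) on all 20 chromosomes and in all 4 width bins. By rank it was lower in 8 of 10 bins, with the interval clear of 0 in 6 of the 10. Against shared primed regions (1.18%) the difference was -0.88 points (-1.14 to -0.67), lower on 19 of 20 chromosomes and in 9 of 10 rank bins, with the interval clear of 0 in 4 of the 10. Face SMARCA4 gave the same order with larger shares: 35.9% of acetylated limb-only and 34.8% of shared primed regions, against 15.4%. The limb-only primed share was lower than either in all 4 width bins and all 10 rank bins, with the interval clear of 0 in 7 rank bins for the acetylated and 10 for the shared class. The rule itself bears on these orders. Limb-only primed regions were cleared of the 4 excluding lists, while the acetylated and shared classes each touch 1 of them by definition. Only 5.24% of limb SMARCA4 peaks and 33.15% of face SMARCA4 peaks were clear of those lists, and the part of this was not tested. Forebrain-only regions had a lower face SMARCA4 share, 8.74%, which is 6.64 points below the limb-only primed regions (5.87 to 7.38) and lower on all 20 chromosomes. With the limb H3K4me1 list limited to its 34848 best-ranked regions, as many as the forebrain list holds, that difference was 15.3 points. Control lists also overlapped fewer forebrain-only regions, 6.87% against 10.97%, and their part in that difference was not tested.

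The remaining FLAG lists overlapped under 2% of the limb-only primed regions each. Neural tube SMARCA4 overlapped 529 (1.89%), beside 18% of all limb H3K4me1 regions. EP300 of ESC overlapped 538 (1.92%), beside 9.22%, and SMARCA4 of ESC 447 (1.59%), beside 4.2%. Both ESC lists held 12 of these regions. Forebrain SMARCA4 overlapped 158 (0.563%), beside 11.3%, and hindbrain SMARCA4 150 (0.535%), beside 6.17%. EP300 of the face overlapped 62 (0.221%), beside 3.73%, SMARCC2 of the hindbrain 54 (0.193%), beside 0.323%, and SMARCA4 of the midbrain 52 (0.185%), beside 2.06%. The nuclear receptor coactivators were rarest, with NCOA2 over 19 regions (0.0677%), beside 4.26%, and NCOA1 over 8 (0.0285%), beside 0.677%.

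**Figure D4:**
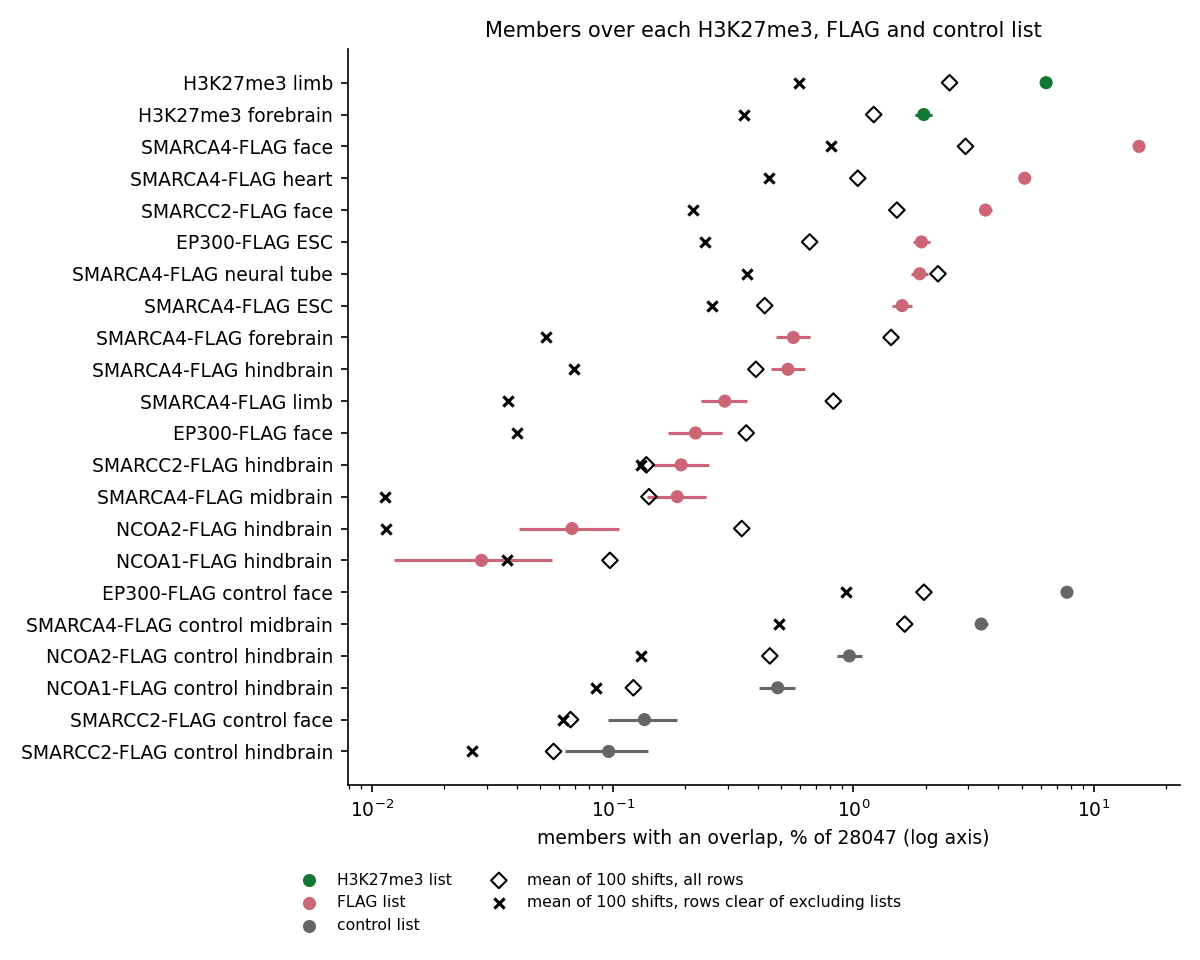
Filled points give the share of the 28047 limb-only primed regions (members) that overlapped each H3K27me3, FLAG and control list, with exact 95% intervals, on a log axis. Open diamonds give the mean of 100 circular shifts of the whole list and crosses that of the peaks clear of the 4 excluding lists; limb SMARCA4 at 0.292% lies below its diamond (0.826%) and above its cross (0.0366%).

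Counting only peaks clear of the excluding lists changed the order for several lists. On all peaks, 6 FLAG lists overlapped fewer primed regions than their circular shifts: limb, forebrain and neural tube SMARCA4, face EP300, NCOA1 and NCOA2. On clear peaks the ratio was 6.23 for forebrain SMARCA4, 4.37 for neural tube SMARCA4, 5.45 for face EP300 and 5.90 for NCOA2, while NCOA1 stayed at 0.787 with an interval of 0.340 to 1.55 that includes 1. On the same scale face SMARCA4 reached 19.1, midbrain SMARCA4 16.3 (12.2 to 21.4), face SMARCC2 16.0 and heart SMARCA4 11.5, and limb H3K27me3 7.93. Of the clear face SMARCC2 peaks, 51.4% of 1880 touched a limb-only primed region, and of the clear face SMARCA4 peaks 37.5% of 11635.

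Each FLAG library with a control of its own could be set beside it on this scale. Face SMARCC2 was at 16.0 and its control at 2.19 (1.55 to 2.999). Midbrain SMARCA4 was at 16.3 and its control at 6.94. Face EP300 was at 5.45 (4.17 to 6.99) and its control at 8.30. NCOA1 was at 0.787 and its control at 5.70, and hindbrain SMARCC2 was at 1.47 and its control at 3.69. NCOA2 was at 5.90 (3.55 to 9.21) and its control at 7.35 (6.50 to 8.28), 2 overlapping intervals. Thus on clear peaks 2 of the 6 FLAG lists lay above their control, 3 below it, and 1 within counting error of it. The order depends on this scale. With shifts of all peaks, midbrain SMARCA4 was at 1.31 (0.979 to 1.72), below its control at 2.08 (1.95 to 2.21). Face SMARCC2 was then at 2.34 (2.20 to 2.48) and its control at 2.03 (1.44 to 2.78), with overlapping intervals. On all peaks, none of the 6 FLAG lists lay above its control beyond counting error. Each FLAG list and its control differ in length, in peak width and in the share of peaks clear of the excluding lists, and the part of that was not tested. The clear share was 16.6% for face SMARCC2 and 90.2% for its control. It was 10.2% for midbrain SMARCA4 and 33.2% for its control. For hindbrain SMARCC2 alone the FLAG list had the larger clear share, 92.25% against 47.8%. The face EP300 control, with 28895 peaks the second longest list of the FLAG and control libraries, overlapped 2165 limb-only primed regions (7.72%), beside 23.7% of all limb H3K4me1 regions, whereas face EP300 itself overlapped 62. The other controls overlapped 953 (3.40%, beside 20.1%) for midbrain SMARCA4, 270 (0.963%, beside 6.83%) for NCOA2, 136 (0.485%, beside 1.07%) for NCOA1, 38 (0.135%, beside 0.193%) for face SMARCC2 and 27 (0.0963%, beside 0.681%) for hindbrain SMARCC2. The 3 histone inputs overlapped 66 (limb methylation marks), 43 (H3K27ac) and 9 (forebrain), which is 0.235%, 0.153% and 0.0321%, beside 0.387%, 0.289% and 0.0378%.

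Few limb-only primed regions were in several FLAG lists. In no FLAG list were 20976 regions (74.8%), in 1 list 5632, in 2 lists 1156, in 3 lists 245, and in 4 or more lists 24, 9, 4 and 1 regions (4, 5, 6 and 7 lists). Of all limb H3K4me1 regions 21% were in 1 list, 10.2% in 2 lists, 6.62% in 3 lists and 14% in 4 or more, beside 20.1%, 4.12%, 0.874% and 0.136% of the limb-only primed ones. The median width grew from 1034 bp in no list to 2014 bp in 3 lists, and the share over a control list from 7.96% to 31.8%. The region in 7 lists, chr5:89148875-89149830, lay 543 bp from the start point of Mobkl1a, a MOB family kinase regulator, and was in 3 control lists too. A region in 6 lists and in no control list, chr7:137977730-137979476, lay 30796 bp from the start of Plekha1 and was over SMARCA4 of face, forebrain, heart, midbrain and ESC and over face SMARCC2. Another, chr14:57505976-57507269, had its centre 9 bp from the start point of Zmym2, a zinc finger gene, although it was clear of both H3K4me3 lists, and was over 6 SMARCA4 lists, limb included. The region chr9:57908109-57909288, 2896 bp from Stra6, a retinol transporter, was in both EP300 lists, in face, forebrain and ESC SMARCA4 and in face SMARCC2, and in 2 control lists. Among regions in 5 lists, chr2:168735821-168739559, 43398 bp from Zfp64, was over limb SMARCA4 and lay wholly under H3K27me3 in limb.

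The height of FLAG peaks inside limb-only primed regions could be set beside that of all peaks away from H3K4me3 for the lists deposited as tables, which do not include SMARCA4 of face, limb, forebrain or neural tube. In the authors' deposited table for heart SMARCA4, the 1466 peaks inside these regions had a median fold enrichment of 5.28 (quartiles 4.64 and 5.97), and all 8573 peaks of the list away from H3K4me3 had 5.30 (4.65 and 6.02). The tag counts in the authors' deposited table had medians of 36 and 34. In the authors' deposited table for face SMARCC2, the median fold enrichment was 4.16 for 995 peaks inside and 4.21 for 4580 peaks away from H3K4me3. For ESC SMARCA4 the authors' deposited table gave 14.5 for 450 peaks inside and 14.8 for 5123. Midbrain SMARCA4 had a higher median fold inside, 19.7 for 52 peaks against 17.5 for 605 in the authors' deposited table, with fewer tags (medians 18 and 22). NCOA1 had a lower one, 8.73 for 8 peaks against 10.3 for 622 in the authors' deposited table. These folds are the authors' own and are compared only within a list.

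The 10 limb-only primed regions of best rank lay 649 to 101846 bp from their nearest start points. The best-ranked, at rank 268 of the limb H3K4me1 list, was chr2:172704421-172716543, the second widest of all at 12123 bp, 55313 bp from the start of Bmp7, a bone morphogenetic protein ligand of the limb bud. It was over face SMARCA4 and ESC SMARCA4 and under no limb H3K27me3. Next came chr12:105698717-105701028 (rank 386), 11574 bp from Gsc, the homeobox gene goosecoid, over face SMARCA4 and under forebrain H3K27me3. At rank 567, chr4:153744428-153751208 lay 31571 bp from Prdm16, a zinc finger transcription regulator, and at rank 866 chr6:53419484-53423560 lay 101846 bp from Creb5, a CREB family transcription factor. Rank 962, chr2:168458100-168464115, lay 45259 bp from Nfatc2, a calcium-regulated transcription factor, and had 2828 bp under limb H3K27me3. The other nearest start points of the 10 best-ranked regions belonged to Asb1, Cltb and the transcript models AK033051, AK144571 and AK007042. Of the 10 regions, 5 were over face SMARCA4, 2 over heart SMARCA4 and 2 over face SMARCC2, and 2 were in no FLAG list. The widest region, chr1:182276608-182289825 (13218 bp), had the transcript model MGC68323 as its nearest start point, and the other wide ones had Dmrtb1, Umps and mKIAA0369.

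Gene start points were recovered from the authors' own distances for 15988 genes, and limb-only primed regions mostly lay far from them. The median distance was 42498 bp (quartiles 16867 and 96916 bp), 1.52% were within 1 kb, 15.0% within 10 kb and 24.1% beyond 100 kb. Acetylated limb-only regions were somewhat nearer, with a median of 36737 bp and 17.8% beyond 100 kb. A gene had on average 3.25 limb-only primed regions within 100 kb of its start, 82.3% of genes had at least 1, and 4.2% had 10 or more.

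Limb genes had more of them. The 68 placed genes of the limb transcription factor and limb signalling lists had a mean of 5.96 limb-only primed regions within 100 kb, 1.83 times the mean of all genes (SE 0.15 over genes, n = 68), and 63 of the 68 had at least 1, beside 82.3% of all genes. Some of these genes, such as Hoxd9, Hoxd10 and Hoxd12, lie close enough to share regions. The SE treats such genes as independent, which they are not. Giving each region to its nearest start point alone gave a ratio of 3.61, over fewer genes. Genes placed only by the closest peak summit, such as Hoxd10, Hoxd12 and Hoxc10, have no start point of their own and were left out of it. Within 100 kb, leaving out any 1 gene gave 1.78 (without Wnt11) to 1.86 (without Twist1). The same ratio over all limb H3K4me1 regions away from H3K4me3 was 1.69, so the limb lists were dense in H3K4me1 in general. For acetylated limb-only regions it was 1.12, for shared primed regions 1.51 and for forebrain-only regions 1.03. No SE was computed for these ratios, and their differences from 1.83 were not tested. The acetylated ratio rests on few regions: the class holds 1943 in all, and 20.5% of all genes had one within 100 kb.

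By list, limb transcription factors came first, at 1.92 times all genes (SE 0.20, 40 of 43 genes placed), with 10 or more regions at 6 genes, beside 4.2% of all genes. Tbx3, a T-box repressor of the limb margins, had 17 limb-only primed regions within 100 kb, Alx4, a homeobox gene of the anterior limb bud, had 16, and Zbtb16, a zinc finger repressor of proximal limb patterning, had 15. No acetylated limb-only region lay within 100 kb of these 3 genes, as for 79.5% of all genes. Limb signalling genes were at 1.70 (SE 0.24, all 28 placed): Wnt11, a Wnt ligand, had 18, and both Bmpr1b, a BMP receptor of early cartilage, and Dusp6, a phosphatase induced by FGF signalling, had 11.

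The lists of other limb cell types and of other organs gave lower ratios, not all apart from the limb lists. The ranges of ratio plus or minus SE of the endothelial and connective tissue lists overlapped those of both limb lists. Those of the cartilage, muscle precursor and heart lists overlapped that of the limb signalling genes. Endothelial genes were at 1.59 (SE 0.28), led by Fli1 with 14 and by Ece1 and Erg with 11 each. Connective tissue and tendon genes were at 1.45 (SE 0.32), led by Ebf2 with 13, Twist2 with 12 and Tcf7l2 with 10. Cartilage genes were at 1.34 (SE 0.24), led by Runx3 with 15, then Bmpr1b with 11 and Runx2, the bone and cartilage regulator, with 8. Muscle precursor genes were at 1.34 (SE 0.21), led by Eya2 with 12, Lbx1 with 8 and Myog with 7. Heart genes were at 1.30 (SE 0.19), led by Hand1 with 12, Tnnt2 with 10 and Myl3 with 7, and Schwann and crest genes at 1.08 (SE 0.22), led by Sox10 with 8 and Mitf with 7. Housekeeping genes were at 0.71 (SE 0.15), led by Rplp0 and Ywhaz with 6 each and Actb with 5. Forebrain transcription factors were lowest at 0.54 (SE 0.11), with Emx2 at 7 and Dlx1 and Dlx2, which are neighbours and share their regions, at 5, and their ratio for forebrain-only regions was 2.41. The limb ectoderm and blood lists were not compared, because 75% and 60% of their genes could be placed, under the 80% required. Dlx3 (11), Tfap2c (10) and Grhl3 (9) led the first and Runx1 (11), Cx3cr1 (5) and Csf1r (3) the second.

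**Figure D5:**
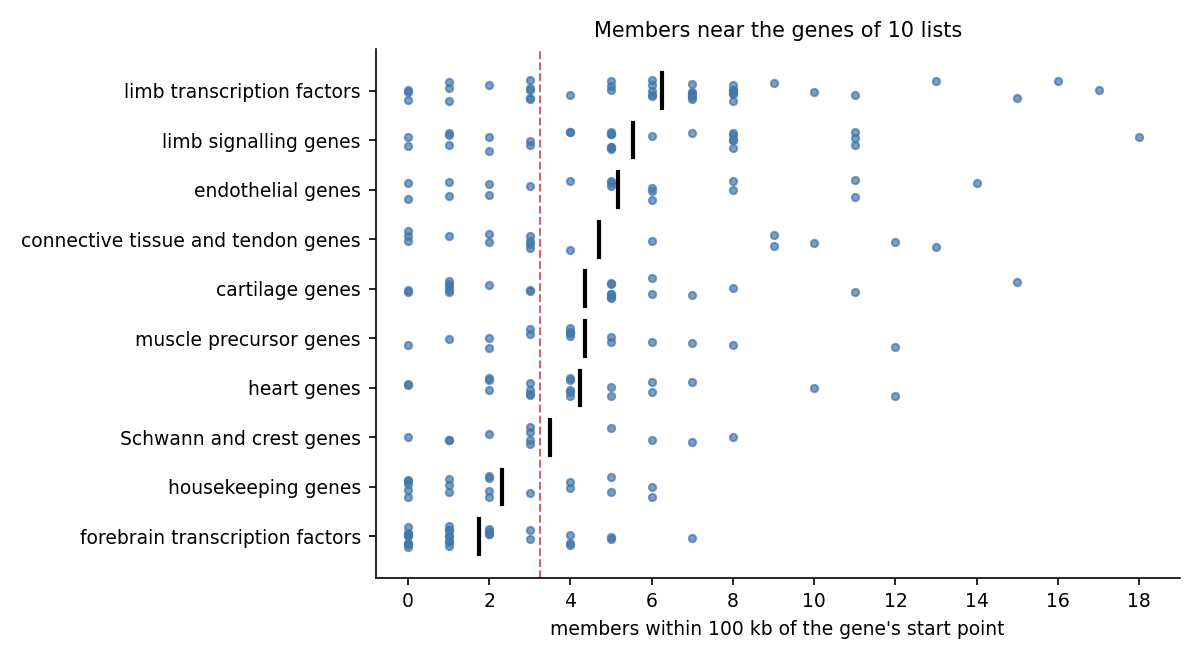
Each point is a gene of 1 of 10 lists and its place on the horizontal axis is the number of limb-only primed regions (members) within 100 kb of its start point; black bars are list means and the dashed line is the mean over all 15988 genes (3.25). The limb transcription factor list has the highest mean (6.25) and the forebrain transcription factor list the lowest (1.76).

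The regions near limb transcription factors were often under Polycomb. Of 230 limb-only primed regions within 100 kb of these genes, 62 (26.96%, 21.3 to 33.2%) were under limb H3K27me3, against 6.82% of the 21271 regions within 100 kb of any start point, and 24 of the 40 genes had such a region, beside 18.6% of all genes, which had fewer limb-only primed regions each. The 24 include Hoxd9, Hoxd10 and Hoxd12, whose 100 kb reaches overlap, so a region can count for several genes. Tbx3 had 11 of 17 under the mark, Alx4 4 of 16 and Zbtb16 2 of 15. Without the regions of Tbx3 the share was 23.9%, and without those of the Hox genes 24.7%. The share was 21.9% (13.1 to 33.1%) of 73 regions for muscle precursor genes, where Lbx1, a homeobox gene of migrating muscle precursors, had 4 of 8, and 21.7% (10.95 to 36.4%) of 46 for forebrain transcription factors. Limb signalling genes had 9.03% (5.03 to 14.7%) of 155, with Wnt11 at 5 of 18, cartilage genes 6.25% (2.33 to 13.1%) of 96 and endothelial genes 8.16% (3.59 to 15.5%) of 98. Schwann and crest genes had 16.7% (6.97 to 31.4%) of 42, heart genes 16.3% (8.95 to 26.2%) of 80, connective tissue and tendon genes 7.5% of 80 and housekeeping genes 9.09% (2.53 to 21.7%) of 44. The placed limb ectoderm genes had 20.8% (12.2 to 32.0%) of 72 and the placed blood genes 0 of 29 (0 to 11.9%). Over face SMARCA4, the limb transcription factor regions had 17.4% (12.7 to 22.9%), within counting error of the 15.4% of all limb-only primed regions.

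Of the 10 start points with the most limb-only primed regions, chosen so that none is within 100 kb of another, the first 3 had 18 each: Wnt11, Crispld2 (a secreted cysteine-rich protein gene) and AA407270. The other 7 had 17: BC100494, Tbx3, 4631422O05Rik, Nrp2 (neuropilin 2, a semaphorin and VEGF co-receptor), AK085818, Prm1 and AK144571. BC100494 and Tbx3 are neighbours on chromosome 5 whose 100 kb reaches overlap and share regions, and 12 and 11 of their 17 regions were under limb H3K27me3, while Crispld2, 4631422O05Rik, Prm1 and AK144571 had none. Prm1 encodes a sperm protamine and has Socs1, a cytokine signalling suppressor, within 100 kb, so that the start point alone does not say which gene these regions belong to. Acetylated limb-only regions were present within 100 kb of 4 of the 10, beside 20.5% of all genes: Crispld2 (5), Prm1 (4), AK085818 (3) and AA407270 (2).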

How the data were processed

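Regions of ChIP-seq enrichment were taken as the authors deposited them, in mm9 and 1 library a condition. Reads were mapped with BWA, per the submitters' processing notes. The peak caller, its thresholds and the read depth are not given in the sources used here. The 14 position lists and 16 tables were read through their headers. Per the file headers, the tables of the authors give a count of tags in each peak, a fold enrichment (against what is not given), a score of -10 times log10 of the p-value (lowest value 50), a conservation score of no stated scale (not reported) and, in some tables, a false discovery rate in percent, which was not used.

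A region counted as overlapped at 1 bp. Each list was also slid around every chromosome 100 times, and separately by 100 kb to 1 Mb, as a description of neighbourhood and not a test. Intervals are exact Clopper-Pearson or Newcombe at 95%, cover counting error over regions alone, and treat neighbouring regions as independent, which they are not. SEs over genes likewise treat genes with overlapping reaches as independent. Width bins were split at the quartiles of the limb-only primed regions. Start points came from the authors' summits and distances where at least 2 agreed, and the listed genes were matched to them by symbol, by an older name in RefSeq GRCm38.p6 or by the closest summit within 10 kb. Genes named were the 10 start points with the most regions, the 3 leading genes of each list, and the nearest genes of the regions of best rank, most FLAG lists, most bases under limb H3K27me3 and greatest width. Of the Schwann and crest list, 1 leading gene is not reported here.

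Members and gene lists were chosen with earlier results of these data known. Python 3.11.15, numpy 2.4.6, pandas 2.3.3 and scipy 1.17.1 were used, and the overlap and shift code was tested on simulated data. Alternatives set other overlaps, gaps, ranks, shifts and reaches around genes. Shifts of the clear peaks alone, the removal of the X chromosome and the alternatives for the comparison of classes were chosen after seeing the data. The sequences of the regions were not analysed here.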

Additional observations from a re-analysis of the deposited data

How the results depend on the processing

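With limb H3K4me1 limited to its 34848 best-ranked regions, as many as the forebrain list has, 11311 regions met the rule. Of these, 7.89% were under limb H3K27me3, 2.35% under forebrain H3K27me3, 0.477% over limb SMARCA4, 24.1% over face SMARCA4, 36.0% over any FLAG list and 14.7% over any control list, and limb genes had 2.31 times the mean of all genes. The nearest start point alone, without the genes placed by the closest summit, gave limb genes 3.61 times that mean. Regions with no excluding region within 1 kb had 1.78% under forebrain H3K27me3. Regions over no control or input list had 5.74% under limb H3K27me3, 13% over face SMARCA4 and 22.7% over any FLAG list. A window of 1 kb at the centre of every limb-only primed region, with none left out, gave 6.04% and 1.71% under limb and forebrain H3K27me3. For the 41.4% of regions narrower than 1 kb, this window reached beyond the region. The windows had 13.8% over face SMARCA4, 22.9% over any FLAG list and 9.36% over any control list. An overlap of 200 bp, or of the whole shorter region where that was narrower, gave 1.73% for forebrain H3K27me3. It gave 24.2% for any FLAG list and 10.5% for any control list. The best-ranked part of each list, 50% of it, gave 3.32%, 1.26%, 0.107%, 3.16%, 8.29% and 3.51% for limb and forebrain H3K27me3, limb and face SMARCA4, any FLAG list and any control list. Without the X chromosome limb H3K27me3 was at 6.00%.

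With shifts of 100 kb to 1 Mb the ratio to shifts was 1.53 for limb H3K27me3, 1.03 for forebrain H3K27me3, 0.224 for limb SMARCA4, 3.18 for face SMARCA4, 2.47 for any FLAG list and 2.27 for any control list, and it turned below 1 for hindbrain (0.902) and midbrain (0.721) SMARCA4. With clear peaks alone, in the same order, it was 7.93, 3.91, 6.43, 19.1, 10.3 and 7.29. It turned above 1 for limb SMARCA4, face EP300 (5.45), NCOA2 (5.90), forebrain SMARCA4 (6.23) and neural tube SMARCA4 (4.37).

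Against forebrain-only regions, the difference in limb H3K27me3 was 0.99 points for the best-ranked limb regions, which turned its direction, and -0.67 without regions over a control or input list, where its interval left 0. The difference in limb SMARCA4 was 0.031 for the best-ranked regions, -0.094 with no excluding region within 1 kb and -0.12 without regions over a control or input list, and the interval of the last 2 reached 0. The difference in any FLAG list was 0.39 without such regions, with an interval that reached 0. Of the 10 start points with the most regions, 6 moved by more than 1.5 times with the best-ranked limb regions. The cause of these changes was not tested. No paired analysis was possible because each condition is 1 library.

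The limits are those of lists: absence from a list does not show absence of a mark, the read depth behind each list is unknown, and whole tissues mix cell types.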

Other observations

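Limb-only primed regions and all limb H3K4me1 regions were both unevenly spread over the genome. Of 2647 windows of 1 Mb, 675 (25.5%) held none, the median was 7, and 451 windows held 50% of all of them. For all limb H3K4me1 regions, 431 windows (16.3%) held none, the median was 15, and 483 windows held 50%. The fullest, from 119 to 120 Mb of chromosome 5, held 70 of its 94 limb H3K4me1 regions, and 30 of the 70 were under limb H3K27me3. It lies beside Tbx3 and includes Med13l, a subunit gene of Mediator. The next, from 123 to 124 Mb of chromosome 8, held 60 of 101, also with 30 under limb H3K27me3, around Irf8, an interferon regulatory factor of myeloid cells, and Mthfsd. The window from 29 to 30 Mb of chromosome 14, which holds Wnt5a, a Wnt ligand of limb outgrowth, and Lrtm1, had 58 of 76, and 0 of the 58 were under limb H3K27me3. Thus the fullest windows differed in the mark. The window from 92 to 93 Mb of chromosome 1, with Cxcr7, a chemokine receptor, and Col6a3, a collagen gene, had 53 of 90, of which 5 were under it. The window from 130 to 131 Mb of chromosome 3, with Lef1, a transcription factor of Wnt signalling, had 48 of 72 and 0 under it.

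Of the limb-only primed regions under limb H3K27me3, 708 windows held at least 1, 14 held 10 or more, and 140 held 50% of them.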
